A study of Sus scrofa with 61 samples.

Results

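Livers of newborn piglets at 1 dpn (days after birth) were compared with livers of young adult pigs at 188 dpn, which gives the net change in hepatic mRNA over postnatal life up to adulthood. The comparison used the 30 arrays of these stages among the 61 arrays of the series, 14 at 1 dpn and 16 at 188 dpn, with 1 animal on each array. Arrays from 15 animals at 28 dpn were used to see which changes had come and gone between the stages, and 16 fetal livers at 94 dpc (days of gestation) served as a reference in a few places. Every animal at all stages was LP offspring, born to a German Landrace gilt that received a gestation diet low in protein (6% crude protein). Animals kept for the later ages were suckled by foster sows on standard feed and received standard feed themselves after weaning. Offspring of adequately fed dams were not analysed here, so no value below separates maturation from maturation after a low protein gestation.

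Several conditions changed with the stage. Newborns were killed by injection of a sedative and an anaesthetic, with no fast described, whereas the young adults were fasted overnight, stunned electrically and bled. Males that were kept beyond the newborn stage were castrated. Sibling pairs of both sexes were sampled at each stage, and those of newborns and fetuses, but not those at 188 dpn, were chosen for unlike body weight. Age, feeding, gonadal status of males, killing procedure and selection by weight changed together and cannot be told apart. The labels name neither litter, mother, sex nor weight, so each animal was treated as independent. Litters shared by animals within a stage make p-values too small. The paper states that littermates were spread over the postnatal ages, so litters may also be shared between the stages compared, which acts the other way. The net direction of this bias in the p-values is therefore not known.

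The liver of a newborn pig is an organ in transition. It has been the site of blood cell formation in the fetus, its hepatocytes still divide, and it has just moved from a continuous supply of glucose and amino acids through the placenta to colostrum and milk. In the adult the hepatocytes are mostly quiescent and carry the enzymes that clear drugs, plant compounds and surplus amino acids, and the sinusoids hold resident macrophages and lymphocytes that meet antigens arriving from the gut. Because whole liver was measured, fewer cells of a type and less RNA per cell cannot be told apart in any value below.

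Values are log2 signals of probe-sets on the Affymetrix porcine array. Where several probe-sets carried a gene's name, the brightest on average stood for it. It was tested if its signal exceeded the median of the array in 50% or more of a stage's animals and had an SD above 0.25. A gene with weak signals at either stage was tested only where the other stage passed, so the filter partly sets its direction. A gene is said to have risen or fallen, or to have been called, where both P and the false discovery estimate q of limma's moderated test were at or below 0.05. Differences are given as 188 dpn minus 1 dpn on the log2 scale with the standard error (SE). Of 6765 genes with a probe-set, 5094 were tested, and 1688 rose (33.1% of those tested) while 2288 fell (44.9%), so that 78.1% were called in either direction. The median difference over all tested genes was -0.16. A difference of at least 1 on the log2 scale was found for 567 genes that rose and 949 that fell. In 358 genes (7.03%) every young adult lay above every newborn, and in 510 genes (10%) every young adult lay below. With so many genes called, a called gene is no rarity here, and the counts in gene lists below should be read against 33.1% and 44.9%.

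The balance of rises against falls depended on how the arrays were scaled. The deposited signals have a common mean, but the median log2 signal of an array was lower in young adults (6.72 ± 0.15, SD, n = 16) than in newborns (7.23 ± 0.07, SD, n = 14). Of the called genes, 42.5% were higher at 188 dpn with the deposited scaling. Quantile normalization gave 2022 higher (40.5%) and 1862 lower (37.3%), a share of 52.1% higher, with a median difference of 0.04. Subtracting each array's median gave 2912 higher (54.9%) and 1206 lower (22.8%), a share of 70.7% higher, with a median difference of 0.40. Small differences of either sign therefore have no settled direction. Among genes given below as fallen, ALB, C5, GBP1, GLUL, HSD17B7, IFI44L, MRC1 and PPARGC1A were not called with array medians subtracted, and BTK, ISG20 and PSMB8 were called under neither. ATP8B1 and UROD were not called with quantile normalization. With array medians subtracted they did not fall, with differences of 0.0076 and 0.25. The rise of MTHFD1 was not called with quantile normalization.

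**Figure D1:**
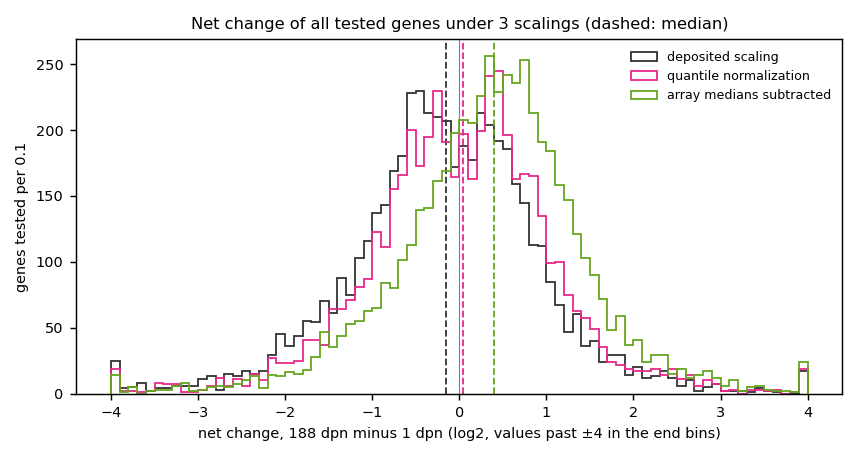
Histograms of the net log2 change (188 dpn minus 1 dpn) of all tested genes under the deposited scaling, quantile normalization and subtraction of array medians, with dashed lines at the medians and values past ±4 gathered in the end bins. The 3 curves have a like shape and are shifted against each other, with medians of -0.16, 0.04 and 0.40.

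The 3′ and 5′ control probe-sets also differed with stage. The 3′ minus 5′ difference of the actin controls was 1.78 ± 0.35 in newborns and 4.03 ± 0.44 in young adults, without overlap, while those of GAPDH (0.39 ± 0.27 and 0.64 ± 0.12) and EF1A (-0.14 ± 0.08 and 0.56 ± 0.53) moved less. The part of RNA quality in the results was not tested. Of the 9 arrays of the series with an outlying 3′ to 5′ difference, 1 was from a newborn and 4 were from young adults. The stages were completely separated on the first principal component, which took up 26.4% of the variance among the 30 arrays. Tissue identity was clear at both ages. Albumin (ALB) lay between 15.26 and 16.67 and transthyretin (TTR) between 14.57 and 15.97 in all 30 animals, near the top of the scale. ALB fell by 0.67 (SE 0.10) and TTR was not called (0.11, SE 0.12). Among 20 tested hepatocyte-defining genes, 2 rose and 12 fell as deposited, whereas 12 rose and 1 fell with array medians subtracted, so the list has no direction of its own.

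The 2 largest rises were those of P450 genes. Cytochrome P450 enzymes of the CYP2 and CYP3 families oxidise drugs, plant compounds and bacterial products from the gut. CYP2A19, the porcine counterpart of the human enzyme for coumarin and skatole, ranged from 4.72 to 7.66 (median 6.88) in newborns and from 14.93 to 15.72 (median 15.16) in young adults, a rise of 8.47 (SE 0.19, q = 2.23e-27) or 355-fold. CYP3A29 had a range of 5.31 to 7.80 (median 6.75) at birth and of 14.21 to 14.94 (median 14.53) at 188 dpn, a rise of 7.85 (SE 0.17). Newborns lay near or below the array median for both genes, and all young adults were among the brightest signals of the array, with no overlap. When the array median was set as the lowest level allowed, the rises were still 7.95 and 7.27.

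Other P450 genes differed in when they changed. CYP3A46 rose from a median of 8.56 (8.19 to 9.55) to 14.41 (13.72 to 14.85), a change of 5.67 (SE 0.13). CYP3A39 went from a median of 10.94 (9.97 to 12.55) to 15.43 (14.93 to 15.84), a change of 4.18 (SE 0.22). Neither gene overlapped between the stages. For CYP3A39 the step from 1 to 28 dpn was 4.15 and the step from 28 to 188 dpn, which shares the 28 dpn arrays, was 0.03 and not called. CYP2A19 rose in both steps, by 4.94 and then by 3.53. CYP2B22 differed from these. Its median was 7.02 at 1 dpn, 5.66 at 28 dpn and 9.62 at 188 dpn, so that it fell by 0.86 before it rose by 3.87. Its net rise of 3.00 (SE 0.26) came wholly after 28 dpn. Of the 14 tested genes on the P450 list (15 had a probe-set), 12 rose, among them CYP2J34 with 3.42 (SE 0.40), and 1 fell, with a median difference of 2.67 against -0.16 for all genes. The exception was CYP1A1, the inducible enzyme for aromatic hydrocarbons, which fell by 2.17 (SE 0.32) from a median of 10.32 to 7.88, with overlapping ranges. CYP2C33 was bright at both stages (medians 15.20 and 15.38) and not called.

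**Figure D2:**
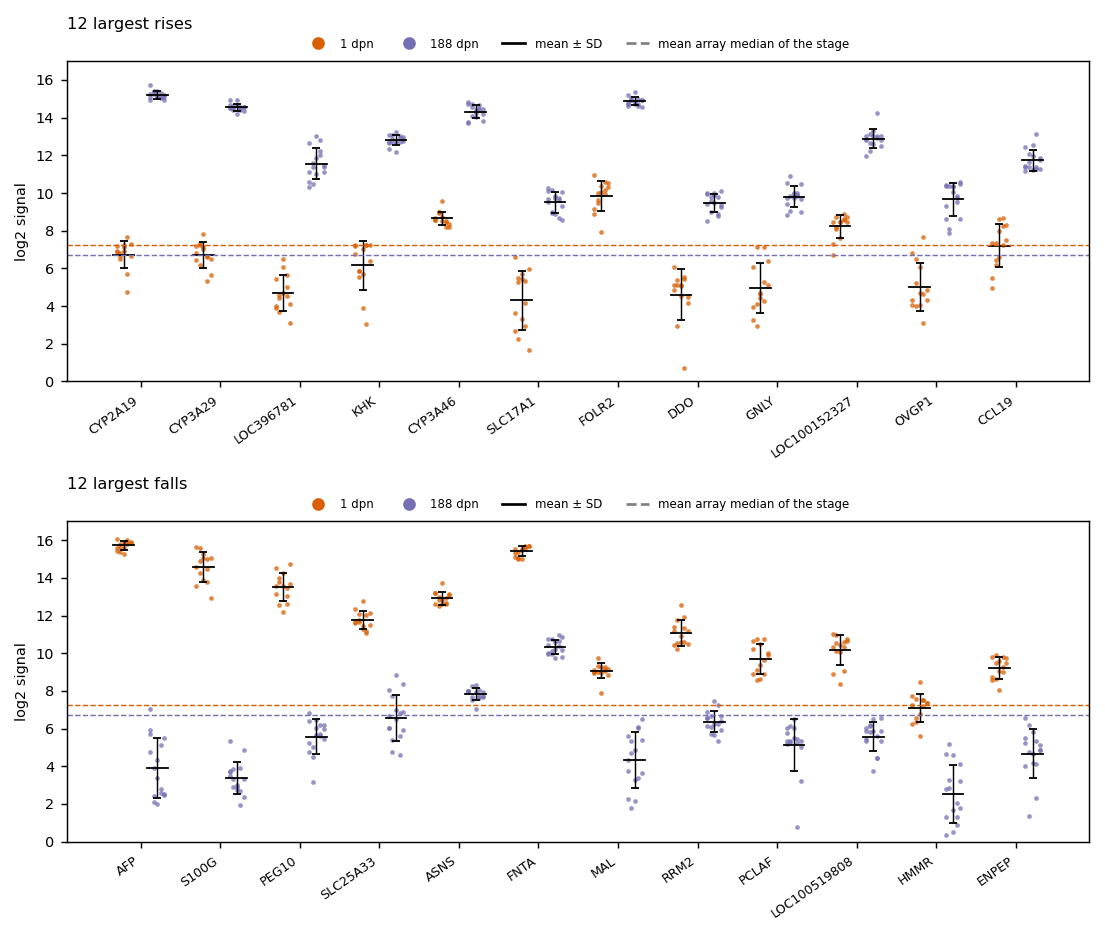
Log2 signals of the 12 genes that rose most and the 12 that fell most among genes whose stages did not overlap, with each point an animal (14 newborns, 16 young adults), bars for the mean ± SD and dashed lines for the mean array median of each stage. CYP2A19 and CYP3A29 move from near the array median to about 15, and AFP and S100G from about 15 to below 8.

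Among 25 tested genes of conjugation and other drug metabolism, 16 rose and 4 fell, with a median of 0.88. Sulfotransferase SULT1A3 rose by 2.43 (SE 0.31), glutathione transferase GSTA1 by 2.31 (SE 0.29), the flavin monooxygenase FMO5 by 1.82 (SE 0.25) and the microsomal glutathione transferase MGST3 by 1.73 (SE 0.13). The oestrogen sulfotransferase SULT1E1 fell by 1.30 (SE 0.23), glutathione transferase GSTA4 by 1.37 (SE 0.25) and the alcohol dehydrogenase ADH5 by 0.87 (SE 0.10). NR1I2, the nuclear receptor PXR that controls CYP3A genes, fell by 1.25 (SE 0.12) from a median of 9.13 to 7.90. P450 reductase (POR), which feeds electrons to these enzymes, had medians of 11.30 and 11.29 and was not called (-0.03), and it was higher at 188 dpn with array medians subtracted (0.48).

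The other genes with the largest rises belonged to varied functions. KHK, the ketohexokinase that starts fructose breakdown, ranged from 3.07 to 7.25 (median 6.58) at birth and from 12.19 to 13.24 (median 12.81) at 188 dpn, a rise of 6.63 (SE 0.32). No newborn came near the young adults and 5.94 of the rise was already present by 28 dpn. An immunoglobulin gamma heavy chain (LOC396781) rose by 6.87 (SE 0.31), the phosphate and urate carrier SLC17A1 by 5.19 (SE 0.39), the macrophage folate receptor FOLR2 by 5.02 (SE 0.20) and D-aspartate oxidase (DDO) by 4.88 (SE 0.34). The cytotoxic protein granulysin (GNLY) rose by 4.84 (SE 0.34), LOC100152327 by 4.65 (SE 0.20), the oviductal glycoprotein gene OVGP1 by 4.64 (SE 0.38) and the lymphoid chemokine CCL19 by 4.54 (SE 0.31). Of these 12 genes that rose most, 9 had a newborn mean below the array median, where signals are weak. Against the floor the rise of SLC17A1 was 2.28, that of DDO 2.26, that of GNLY 2.57, that of OVGP1 2.41 and that of LOC396781 4.34. In all 12, each of the 16 fetuses lay below the lowest young adult.

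Genes of the fetal liver fell furthest. AFP, the fetal serum albumin relative, had a range of 15.28 to 16.06 (median 15.81) in newborns and of 2.01 to 7.05 (median 3.65) in young adults, a fall of 11.81 on the log2 scale (SE 0.41, q = 3.27e-22). S100G, the vitamin D dependent calcium binder calbindin-D9k, ranged from 12.95 to 15.65 (median 14.73) at birth and from 1.95 to 5.33 (median 3.33) later, and fell by 11.18 (SE 0.29). Both genes were among the brightest in newborns and, at 188 dpn, were under the array median in mean, with a wide gap between the stages. With the array median as floor, the falls were 8.97 and 7.84. PEG10, an imprinted gene derived from a retrotransposon, fell by 7.94 (SE 0.29) from a median of 13.58 to 5.70.

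The fetal genes moved as a group. All 7 tested members of the fetal hepatocyte list fell (9 had a probe-set), with a median of -3.40, and 6 fell under each of the other scalings. IGF2, the fetal growth factor, ranged from 14.28 to 15.14 in newborns and from 10.37 to 11.11 in young adults and fell by 3.94 (SE 0.10). The whole fall had occurred by 28 dpn, and the later step was 0.01. Of 11 called probe-sets for IGF2, 10 were lower and 1 was higher, so the fall does not hold for every sequence given this name. MAGED1, of the MAGE family, fell by 3.40 (SE 0.12). On the side of postnatal growth, IGF1 rose by 2.18 (SE 0.23) from a median of 7.67 to 9.97. IGFALS, the subunit that holds IGF1 in the circulating complex, rose by 2.97 (SE 0.31), or by 1.19 with the array median as floor, and the growth hormone receptor GHR rose by 1.19 (SE 0.23). IGFBP6, a binding protein for IGF2, rose by 0.89 (SE 0.25), or by 0.20 with that floor. The receptors IGF2R and IGF1R fell by 1.69 (SE 0.21) and 0.60 (SE 0.11), but IGF1R was at -0.17 with quantile normalization and -0.09 with array medians subtracted and called in neither. Binding proteins IGFBP1 (-0.50, SE 0.33) and IGFBP2 (-0.32) were not called. Of 11 tested members of the growth hormone and IGF list, 5 rose and 2 fell.

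**Figure D3:**
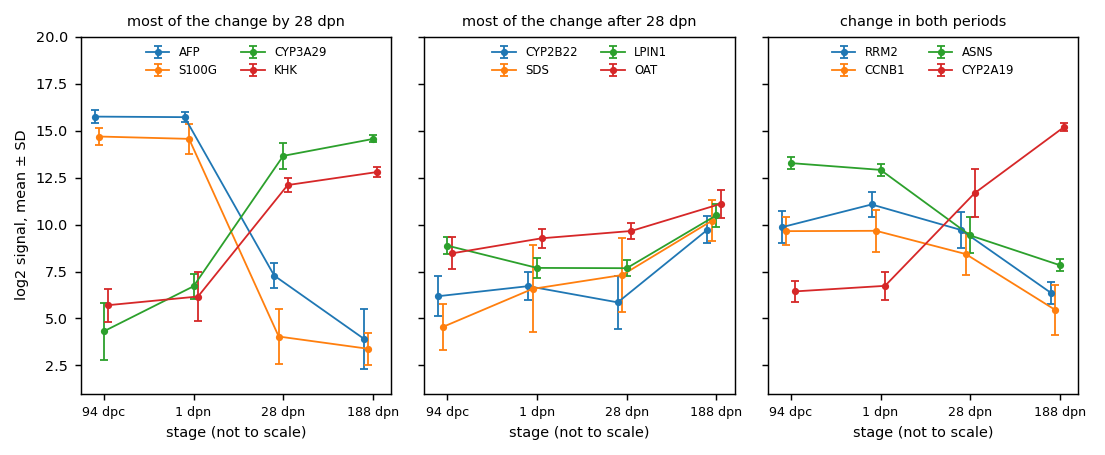
Mean log2 signal ± SD at the fetal stage of 94 dpc and at 3 ages after birth, 1, 28 and 188 dpn (16, 14, 15 and 16 animals) for 12 genes in 3 panels, chosen after their values were seen to show when the net change arose. AFP, S100G, CYP3A29 and KHK had made most of it by 28 dpn, CYP2B22, SDS, LPIN1 and OAT made it afterwards, and RRM2, CCNB1, ASNS and CYP2A19 changed in both periods.

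Genes of cell division were lower in the adult liver. RRM2, the ribonucleotide reductase subunit that supplies deoxynucleotides, ranged from 10.20 to 12.54 (median 11.03) in newborns and from 5.37 to 7.46 (median 6.31) in young adults, a fall of 4.71 (SE 0.22). Thymidylate synthase (TYMS) fell by 3.12 (SE 0.26), primase PRIM2 by 2.89 (SE 0.28) and helicase subunit MCM2 by 2.68 (SE 0.19). On the same floor TYMS fell by 1.97 and PRIM2 by 1.68. None of these genes overlapped between the stages. Of 26 tested DNA replication genes, 24 fell and 1 rose, with a median of -1.63, and 11 of the falls were without overlap. The exception was RPA3, the small subunit of the single-strand binding complex, which rose by 0.60 (SE 0.11).

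Mitotic genes showed the same pattern. Topoisomerase TOP2A fell by 4.43 (SE 0.40) from a median of 9.63 to 5.54. Cyclin B1 (CCNB1) fell by 4.22 (SE 0.43) and the kinase MELK by 4.03 (SE 0.44). Measured against the floor the falls were 2.68, 2.93 and 1.11, since young adults had weak signals for all 3. HMMR, a spindle-associated protein, fell by 4.57 (SE 0.43), but its mean was below the array median at both stages and the fall was 0.70 with that floor. In total 27 of 29 tested mitotic genes fell and none rose, with a median of -2.52. Members weak in young adults were tested only where newborns passed the filter, so this count leans towards falls. CKS1B (0.01) and CDC25B (0.21) were not called. For RRM2 and CCNB1 more of the fall came after 28 dpn (3.34 and 2.98) than before (1.36 and 1.24). PCLAF, a partner of the replication clamp, fell by 4.58 (SE 0.40) and belonged to the 12 genes with the largest falls, together with RRM2 and HMMR.

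The rest of those 12 genes were the mitochondrial pyrimidine carrier SLC25A33 (-5.17, SE 0.33), asparagine synthetase ASNS (-5.08, SE 0.12), the farnesyltransferase subunit FNTA (-5.07, SE 0.13), the membrane raft protein MAL (-4.74, SE 0.39), LOC100519808 (-4.58, SE 0.28) and aminopeptidase A, ENPEP (-4.55, SE 0.36). The net change of FNTA ranged from -5.09 to -2.06 over the alternative ways of processing, and both of its tested probe-sets fell. ENPEP stood apart in its history. Only 3 of 16 fetuses lay above the highest young adult, and every newborn lay above every fetus and every young adult, with stage means of 5.57, 9.22, 6.89 and 4.68 from 94 dpc to 188 dpn. When weak signals were raised to the floor, ENPEP fell by 2.50, MAL by 2.34 and PCLAF by 2.99. For the remaining 11 genes at least 15 of 16 fetuses lay above every young adult.

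Amino acid metabolism showed median changes of opposite sign on its catabolic and anabolic sides. Of 38 tested genes of the urea cycle and amino acid degradation, 25 rose and 4 fell, with a median of 0.57. Serine dehydratase (SDS), which turns serine into pyruvate, had a range of 3.36 to 12.79 (median 6.46) in newborns and of 8.49 to 12.76 (median 9.97) in young adults, a rise of 3.63 (SE 0.61). Some newborns already reached adult levels, and the ranges overlapped. Glycine N-methyltransferase (GNMT), which disposes of methyl groups, ranged from 10.35 to 12.67 (median 11.60) and then from 13.13 to 14.56 (median 14.07), a rise of 2.54 (SE 0.21) without overlap. Urate oxidase (UOX), an enzyme of purine breakdown that was on this list, rose by 4.17 (SE 0.41), and alanine aminotransferase (GPT) rose by 2.06 (SE 0.21). Ornithine aminotransferase (OAT) rose by 1.84 (SE 0.23), and 1.45 of it came after 28 dpn.

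Other genes of this list fell. HPD, the dioxygenase of tyrosine breakdown, ranged from 12.56 to 14.53 at 1 dpn and from 10.62 to 11.45 at 188 dpn. It fell by 2.42 (SE 0.16) without overlap. The methionine adenosyltransferase MAT2A, a form of extrahepatic and proliferating tissue, fell by 2.25 (SE 0.15). Kynureninase (KYNU) fell by 0.88 (SE 0.18) and glutamine synthetase (GLUL) by 0.59 (SE 0.20), although GLUL was higher at 28 dpn than at either end. CPS1, the entry enzyme of the urea cycle, was bright throughout (medians 14.18 and 14.33) and not called.

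Among 21 tested genes of amino acid synthesis and of the ATF4 programme, the cellular response to amino acid shortage, 14 fell and 3 rose, with a median of -0.67. With array medians subtracted 9 of 19 fell and 6 rose, with a median of -0.27. ASNS ranged from 12.48 to 13.72 (median 12.88) in newborns and from 7.04 to 8.33 (median 7.92) in young adults, and fell by 5.08 (SE 0.12, q = 8.95e-27). ALDH18A1, the first enzyme of proline synthesis, ranged from 12.15 to 13.02 (median 12.59) and then from 7.44 to 9.01 (median 8.35), a fall of 4.25 (SE 0.12). Both genes were high in every newborn and low in every young adult, separated by more than the range of either stage. Phosphoserine phosphatase (PSPH) fell by 3.70 (SE 0.27) and pyrroline-carboxylate reductase (PYCR1) by 2.30 (SE 0.23). The serine pathway was not uniform, since PSAT1, the step before PSPH, rose by 1.18 (SE 0.18). SHMT1, which interconverts serine and glycine, rose by 2.69 (SE 0.11) without overlap. MTHFD1 rose by 0.42 (SE 0.09), but of its called probe-sets 2 were lower. The stress transcription factors ATF3 (0.13) and DDIT3 (0.22) were not called.

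Genes of protein entry and folding in the endoplasmic reticulum (ER) were mostly lower at 188 dpn. Of 45 tested members, 40 fell and 3 rose as deposited, with a median of -1.01. With quantile normalization 42 fell and 2 rose, and with array medians subtracted 28 fell and 9 rose. The cargo receptor TMED3 ranged from 9.94 to 11.70 (median 10.91) in newborns and from 6.04 to 7.72 (median 6.84) in young adults, a fall of 4.10 (SE 0.18). The chaperone partner DNAJB11 ranged from 10.44 to 12.98 (median 12.05) and then from 8.02 to 9.59 (median 8.85), a fall of 3.09 (SE 0.22). The stages did not overlap for either gene. CRELD2 fell by 2.77 (SE 0.23), DNAJC3 by 2.33 (SE 0.15) and HYOU1 by 2.30 (SE 0.17). BiP (HSPA5), the main chaperone of the ER, fell by 1.57 (SE 0.15) from a median of 14.80 to 13.22. The exceptions were the oligosaccharyltransferase subunit RPN1, which rose by 0.90 (SE 0.08), calreticulin (CALR), which rose by 0.85 (SE 0.12), and the signal peptidase subunit SPCS1, which rose by 0.37 (SE 0.12) as deposited but not with quantile normalization (-0.0009).

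**Figure D4:**
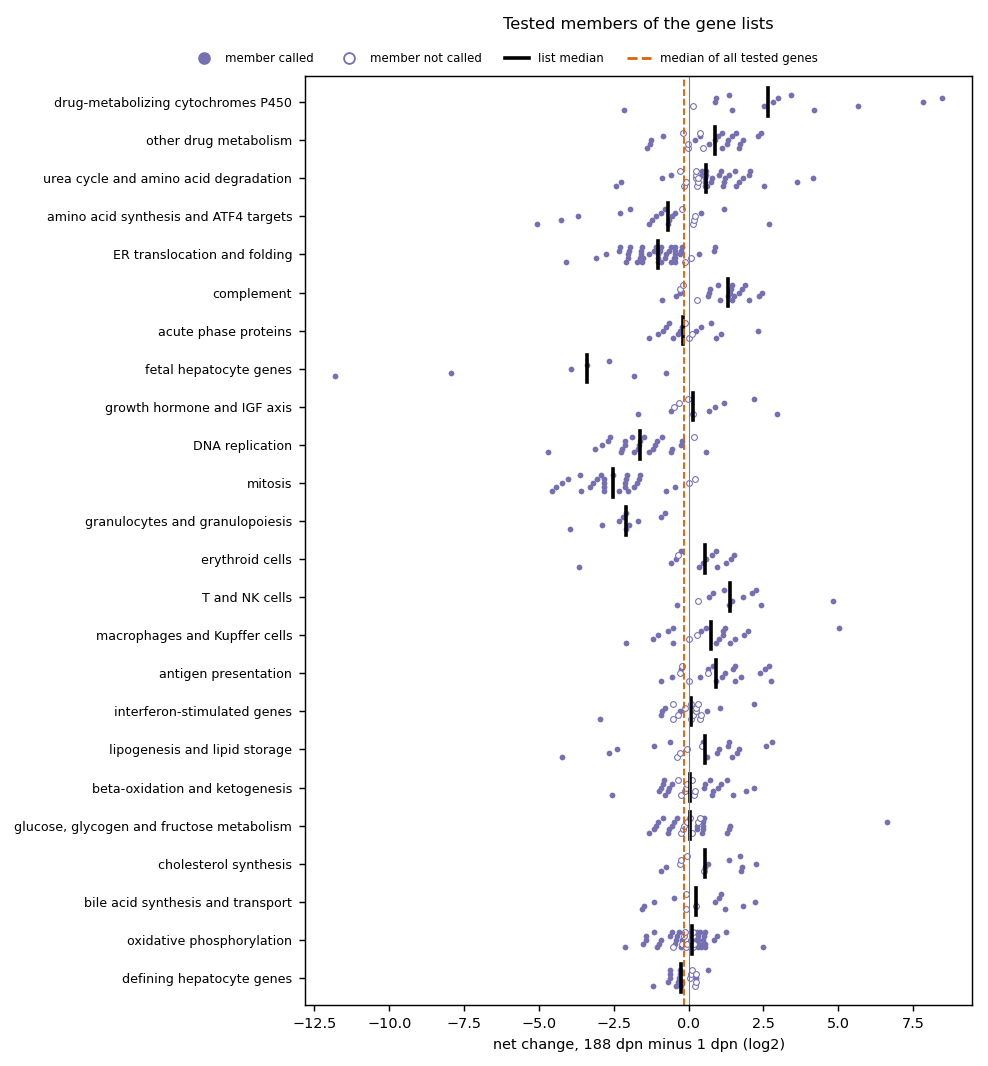
Net log2 change of each tested member of 24 gene lists, with filled points for called members, open points for members not called, a black bar for the list median and a dashed line for the median of all tested genes (-0.16). The medians of the P450, complement and T and NK cell lists lie to the right of the dashed line, and those of the mitotic, granulocyte, fetal and ER folding lists lie to its left.

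Lipid genes moved both ways. PLIN2, the coat protein of lipid droplets, ranged from 12.49 to 14.42 (median 13.17) in newborns and from 7.69 to 11.02 (median 8.72) in young adults, a fall of 4.21 (SE 0.35). Every newborn lay above every young adult. The acyl-CoA synthetases ACSL4, ACSL3 and ACSL5 fell by 2.65 (SE 0.27), 2.39 (SE 0.17) and 1.15 (SE 0.11). LPIN1, a phosphatidate phosphatase on the way to triglyceride, ranged from 6.67 to 8.60 (median 7.71) at 1 dpn. At 188 dpn it ranged from 9.57 to 12.16 (median 10.37), a rise of 2.81 (SE 0.21). It had not moved by 28 dpn (-0.02, not called), so the rise fell in the later period. DGAT2, which completes triglyceride synthesis, rose by 2.58 (SE 0.21), and fatty acid synthase (FASN) by 1.63 (SE 0.30). FABP4, the fatty acid binder of adipocytes and macrophages, rose by 1.68 (SE 0.35) from levels below the array median and did not rise with that floor (-0.17). In all 11 of 20 tested lipogenesis genes rose and 5 fell, with a median of 0.55.

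For fat oxidation the counts depended on the scaling. Of 28 tested genes 11 rose and 9 fell as deposited, with a median of 0.04, and 16 rose and 5 fell with array medians subtracted, with a median of 0.54. ECI1, an auxiliary enzyme for unsaturated fatty acids, rose by 2.19 (SE 0.13), the thiolase ACAA2 by 1.92 (SE 0.20), the short-chain dehydrogenase ACADS by 1.48 (SE 0.11) and the pyruvate dehydrogenase kinase PDK4 by 1.29 (SE 0.29). Both subunits of the trifunctional protein for long-chain fatty acids fell, HADHA by 0.97 (SE 0.14) and HADHB by 0.82 (SE 0.13), as did the long-chain dehydrogenase ACADVL, by 0.84 (SE 0.13). The fasting regulators PPARA and PPARGC1A fell by 2.55 (SE 0.36) and 0.92 (SE 0.24), but for PPARA the fall was 0.72 with the array median as floor. CPT1A, which gates entry of fatty acids into mitochondria, was not called (-0.36).

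The same held for glucose genes, with 11 of 29 rising and 10 falling as deposited (median 0.05) and 21 of 31 rising and 5 falling with array medians subtracted (median 0.64). Apart from KHK, the glucose-6-phosphate carrier SLC37A4 rose by 1.38 (SE 0.13), nearly all of it after 28 dpn, and PCK1 of gluconeogenesis rose by 1.37 (SE 0.16). Its mitochondrial counterpart PCK2 rose by 1.29 (SE 0.16), with 2 probe-sets higher and 1 lower. Glycerol kinase (GK) fell by 1.32 (SE 0.24), lactate dehydrogenases LDHA and LDHB by 1.16 (SE 0.14) and 1.03 (SE 0.19), and the glucose carrier SLC2A1 by 1.08 (SE 0.15). A fast was described for the pigs at 28 dpn and the young adults but not for the newborns, and its part in these values was not tested.

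Sterol and bile acid genes included several rises. Of 13 tested cholesterol synthesis genes, 7 rose and 2 fell, with a median of 0.55. INSIG1, the sterol sensor partner, rose by 2.26 (SE 0.25), SC5D by 1.76 (SE 0.22) and TM7SF2 by 1.73 (SE 0.15), while the sensor INSIG2 fell by 0.91 (SE 0.18) and HSD17B7 by 0.76 (SE 0.27). MSMO1 rose by 1.78 (SE 0.23) on its brightest probe-set, and another of its probe-sets was lower. Of 13 bile acid genes 6 rose and 4 fell. CYP27A1, of the acidic pathway of bile acid synthesis, rose by 1.84 (SE 0.12) without overlap. CYP7A1, the rate-limiting enzyme of the classical pathway, was very variable, from 1.29 to 7.61 in newborns and from 2.02 to 10.24 in young adults, and its rise of 2.21 (SE 0.73) shrank to 0.25 with the array median as floor. The canalicular export pumps ABCB11 and ABCC2 fell by 1.57 (SE 0.26) and 1.50 (SE 0.16), the nuclear receptor NR5A2 by 1.14 (SE 0.14) and the lipid flippase ATP8B1 by 0.50 (SE 0.17). AMACR rose by 1.20 (SE 0.16) and the organic anion carrier SLCO2B1 by 1.08 (SE 0.11).

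Respiratory chain genes had no direction that survived a change of scaling. As deposited, 19 of 46 tested members rose and 16 fell, whereas 5 rose and 25 fell with quantile normalization and 40 rose and 7 fell with array medians subtracted. Single members moved far more than the list. COX7A1, the heart and muscle form of a cytochrome oxidase subunit, rose by 2.49 (SE 0.20) from a median of 11.29 to 13.72 without overlap. Cytochrome c (CYCS) fell by 2.13 (SE 0.19), NDUFB3 by 1.53 (SE 0.12) and NDUFS1 by 1.44 (SE 0.13), all without overlap.

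Levels of several immune cell genes differed between newborns and young adults. Of 12 tested T and NK cell genes, 10 rose and 1 fell, with a median of 1.40. With the array median as floor 5 of 10 tested rose and 1 fell, with a median of 0.29. The log2 of their summed signals ranged from 10.35 to 11.07 in newborns and from 11.76 to 12.45 in young adults. Only 12 of the 23 listed genes with a probe-set passed the filters, and CD2, CD3G and CD4 were among those that did not. Members weak in newborns were tested only where young adults passed, so the counts lean towards rises. GNLY, described above, rose from a median of 4.66 to 9.86. The T cell co-receptor chain CD8A rose by 2.42 (SE 0.46) or by 0.65 with the array median as floor, the chemokine CCL5 by 2.24 (SE 0.20) and the receptor signalling chain CD247 by 2.12 (SE 0.23). CD8B, the partner of CD8A, fell by 0.38 (SE 0.18) as deposited and had the opposite sign under the other scalings (0.12 and 0.13). Among plasma cell genes, JCHAIN, which links immunoglobulin polymers, rose by 4.09 (SE 0.23) or by 2.65 with the floor, while BTK of B cell signalling fell by 0.59.

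Macrophage genes included rises and falls. Of 20 tested, 12 rose and 6 fell, with a median of 0.75. FOLR2 ranged from 7.92 to 10.94 (median 10.03) in newborns and from 14.59 to 15.39 (median 14.84) in young adults. IRF8, a transcription factor of the mononuclear lineage, rose by 1.98 (SE 0.16), the adaptor TYROBP by 1.84 (SE 0.14) and the Fc receptor FCGR3A by 1.56 (SE 0.16), all without overlap. In the opposite direction, the scavenger receptors MARCO and CD163 fell by 2.10 (SE 0.38) and 1.19 (SE 0.15), the myeloid factor SPI1 by 1.02 (SE 0.17) and the mannose receptor MRC1 by 0.70 (SE 0.15). MARCO fell by 0.99 when weak signals were raised to the array median. MHC class II genes rose together. SLA-DQB1 ranged from 7.30 to 10.72 (median 9.40) and then from 11.41 to 13.08 (median 12.07), a rise of 2.75 (SE 0.26), and SLA-DRA rose by 2.68 (SE 0.20), SLA-DQA1 by 2.55 (SE 0.23) and SLA-DRB1 by 2.40 (SE 0.23). Every young adult exceeded every newborn in all 4. Over the antigen presentation list 14 of 21 rose and 3 fell, with a median of 0.92. The falls were in immunoproteasome genes, PSMB10 by 0.91 (SE 0.13), PSMB8 by 0.55 (SE 0.21) and PSME2 by 0.26 (SE 0.11). CD74, the class II invariant chain, was not called (-0.27). B2M was not called either (0.01) on its brightest probe-set, with 3 other probe-sets higher and 3 lower.

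Granulocyte genes fell, while erythroid genes moved both ways. All 10 tested granulocyte genes fell, with a median of -2.09, and the log2 of the list's summed signals went from a range of 11.60 to 14.66 to one of 9.63 to 11.44. The protegrin NPG4, a porcine antimicrobial peptide, ranged from 10.36 to 13.99 (median 11.35) in newborns and from 7.14 to 10.31 (median 8.64) in young adults, a fall of 2.90 (SE 0.28) without overlap. S100A9 fell by 2.32 (SE 0.30) and lactoferrin (LTF) by 2.19 (SE 0.36). Proteinase PRTN3 fell by 3.96 (SE 0.50), or by 1.13 with the array median as floor. Of 14 tested erythroid genes, 9 rose and 4 fell, with a median of 0.54, and with the array median as floor 7 rose and 6 fell, with a median of 0.20. When all probe-sets of a gene were averaged, 7 rose and 5 fell, with a median of 0.05. For the granulocyte list the median with the array median as floor was -1.12, and all 10 fell. Granulocyte genes weak in young adults were tested only where newborns passed the filter, so that count leans towards falls. The globin HBM rose by 1.51 (SE 0.19), the globin chaperone AHSP by 1.43 (SE 0.35), the erythroid haem enzyme ALAS2 by 1.25 (SE 0.26) and PPOX, a later haem enzyme, by 0.96 (SE 0.14), although the mean of its probe-sets fell (-0.27). The transferrin receptor TFRC fell by 3.67 (SE 0.57), or by 1.07 with the floor, and BPGM, HBB and UROD fell by 0.57, 0.41 and 0.25. BPGM was at -0.07 and not called with array medians subtracted. For HBB the difference was 0.06 with quantile normalization and 0.10 with array medians subtracted, and for UROD it was 0.25 with array medians subtracted.

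Complement was the secreted system with the clearest rise. Of 23 tested genes 17 rose and 3 fell, with a median of 1.31, and 10 of the rises were without overlap. C8G, a chain of the membrane attack complex, ranged from 10.96 to 12.99 (median 11.82) in newborns and from 13.72 to 14.67 (median 14.18) in young adults, a rise of 2.36 (SE 0.16). Complement factor D (CFD), the protease of the alternative pathway, rose by 2.02 (SE 0.14), and C4BPA, the inhibitor of the classical pathway, by 1.88 (SE 0.13). MBL2, the lectin that starts the mannose pathway, rose by 2.45 (SE 0.40) with overlapping ranges of 6.65 to 9.07 and 8.23 to 13.08. C5 fell by 0.90 (SE 0.21), and CD46 and C9 fell by 0.41 (SE 0.14) and 0.30 (SE 0.13) as deposited but were at 0.10 and 0.21 with array medians subtracted. C3, the central component, was bright at both stages (medians 15.66 and 15.36) and not called (-0.18), and it was higher at 188 dpn with array medians subtracted (0.32).

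Acute phase genes were split, with 6 of 18 rising and 9 falling as deposited (median -0.18) and 10 rising and 4 falling with array medians subtracted. CRP rose by 2.32 (SE 0.37) from a median of 11.89 to 14.31, with overlap. ITIH2 rose by 0.91 (SE 0.12) and the metallothionein MT1A by 0.74 (SE 0.30). SAA2 fell by 1.33 (SE 0.12) without overlap, LBP, the endotoxin binder, by 1.00 (SE 0.23), ITIH4 by 0.85 (SE 0.11) and ORM1 by 0.75 (SE 0.10). Hepcidin (HAMP), the hormone that limits iron entry, ranged from 6.54 to 14.92 (median 12.15) in newborns, from 3.08 to 11.52 (median 6.90) at 28 dpn and from 11.44 to 14.12 (median 13.09) in young adults. It fell by 4.88 and then rose by 5.97, the deepest trough among the genes described here. Its net difference of 1.10 (SE 0.52) was called in the fit of 1 and 188 dpn. It was not called in the fit of 3 stages (SE 0.70, 95% interval -0.31 to 2.50, limma P = 0.122) nor with quantile normalization (0.83). The call was lost under 9 of the 18 alternative settings.

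Several of the lists not described so far had no direction that held under every scaling. Of 24 tested genes of stellate cells and matrix, 10 rose and 6 fell, and more rose than fell under the other scalings too (11 and 5, 18 and 3). Of 16 endothelial genes 5 rose and 6 fell as deposited, against 7 and 7 with quantile normalization and 10 and 5 with array medians subtracted, and of 10 bile duct genes 2 rose and 5 fell, against 2 and 5 and 4 and 4. Among secreted proteins, 8 of 16 coagulation genes rose and 6 fell, and 14 rose and none fell with array medians subtracted. The plasma protein HRG rose by 1.25 and protein C (PROC) by 1.12. Of 20 apolipoprotein and lipoprotein genes, 3 rose and 13 fell as deposited and 8 rose and 4 fell with array medians subtracted. Within it APOF rose by 2.30 and ANGPTL4, an inhibitor of lipoprotein lipase, by 1.83, while the cholesterol exporter ABCA1 fell by 2.01 and hepatic lipase (LIPC) by 1.81. Only 15 of 60 cytosolic ribosomal protein genes passed the filters, of which 12 fell and 3 rose, whereas 41 of 46 rose and 1 fell with array medians subtracted. Actin cytoskeleton genes numbered 9 rising and 15 falling of 33, against 17 and 10 with array medians subtracted. The largest fall was that of CORO1C, an actin-binding protein, by 3.35. Beta-actin (ACTB) fell by 2.66 on its brightest probe-set, and another probe-set of that name was higher. The 3′ minus 5′ difference of the actin controls, given above, moved with it, and its part was not tested. Of 13 iron and haem genes 6 rose and 5 fell, of 8 retinoid genes 3 rose and 3 fell. Of 8 clock genes 4 rose and 3 fell. Of 16 glucocorticoid-responsive genes 8 rose and 4 fell (median 0.50), against 8 and 3 and 10 and 1 under the other scalings. Of 15 immediate early genes 8 rose and 4 fell (median 0.65), against 9 and 3 and 10 and 1. The median of the immediate early list was 0.17 with the array median as floor.

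The net comparison hides changes that came and went. A gene was taken as transient where its differences from 1 to 28 dpn and from 28 to 188 dpn were both called, of opposite sign and at least 1 in size, and as cancelled where in addition the net difference was not called and was below 0.50. The 2 steps share the 28 dpn arrays, so an aberrant level in those 15 animals would by itself give opposite steps. Over 5100 genes tested across the 3 stages, 1661 rose (32.6%) and 1875 fell (36.8%) from 1 to 28 dpn, and 974 rose (19.1%) and 1815 fell (35.6%) from 28 to 188 dpn. Transient courses were found in 42 genes (0.824%), 37 with a peak and 5 with a trough at 28 dpn. Of these, 19 (0.373%) had cancelled by 188 dpn, 17 peaks and 2 troughs, 20 retained a called net difference, and 3 had a net difference that was not called but was at least 0.50. The limits of the rule pass close to some genes. ARHGAP30 was included with a smaller step of 1.01, and C1QA was left out with 0.97. THBS3 was included with a net difference of 0.49, and TAP1 was left out because its net difference of 0.40 was called.

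Interferon-stimulated genes made up 7 of the 19 cancelled genes. These genes encode proteins that block viral replication and relay the interferon signal. IRF7, the factor that amplifies interferon production, ranged from 3.59 to 10.86 (median 7.14) in newborns, from 7.99 to 11.40 (median 9.54) at 28 dpn and from 4.35 to 9.41 (median 6.80) in young adults. It rose by 2.71 (SE 0.51), fell by 2.63 (SE 0.49) and had a net difference of 0.08 (95% interval -0.93 to 1.09). ISG15, a ubiquitin-like modifier, had medians of 10.17, 12.75 and 10.35, with steps of 2.56 and -2.30 and a net of 0.26 (-0.70 to 1.21). MX1, a GTPase active against influenza virus, had medians of 9.63, 11.58 and 9.21, with steps of 2.11 and -2.48 and a net of -0.37 (-1.25 to 0.52). In all 3 genes the ranges of the stages overlapped, and the intervals leave room for net differences near 1. The protease USP18, which removes ISG15, had steps of 2.01 and -1.94, and the RNA-binding proteins IFIT3 and IFIT2 had steps of 1.96 and -1.80 and of 1.02 and -1.14. RSAD2, the antiviral enzyme viperin, had steps of 2.15 and -1.74.

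**Figure D5:**
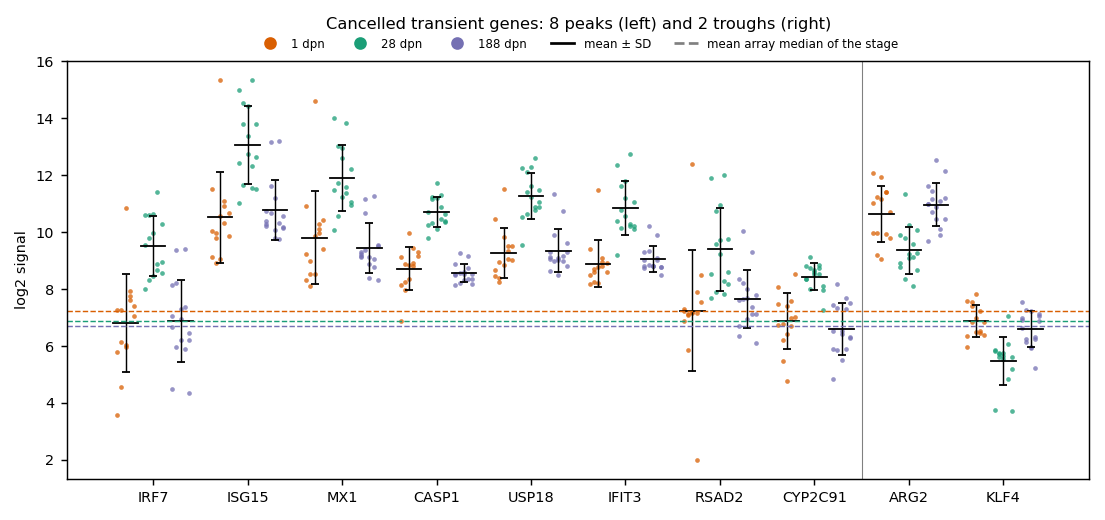
Log2 signals at 1, 28 and 188 dpn (14, 15 and 16 animals, each a point, bars for the mean ± SD, dashed lines for the mean array median of each stage) of the 8 cancelled genes with the largest smaller step and a peak, and of both cancelled troughs, ARG2 and KLF4. Newborn replicate 29 lies above the other newborns in several interferon-stimulated genes, and CASP1 shows the least overlap between 28 dpn and the other stages.

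The list as a whole followed the same course. Of 21 interferon-stimulated genes tested across the stages, 20 rose and 1 fell from 1 to 28 dpn (median 1.10 against -0.05 for all genes), and none rose and 19 fell from 28 to 188 dpn (median -1.51 against -0.11). In the net comparison 3 of 20 rose and 5 fell, with a median of 0.08. The members that kept a net rise were the chemokine CXCL9 with 2.20 (SE 0.31), OAS1 with 1.05 (SE 0.40) and IRF9 with 0.61 (SE 0.17). The kinase EIF2AK2 fell by 2.97 (SE 0.26) without overlap, and GBP1, ISG20 and IFI44L fell by 0.91 (SE 0.23), 0.89 (SE 0.23) and 0.78 (SE 0.27).

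Animals differed strongly in these genes within a stage. The mean log2 signal of the 7 cancelled interferon-stimulated genes ranged from 7.76 to 12.22 (median 8.38) in newborns, from 9.01 to 12.60 (median 10.32) at 28 dpn and from 7.84 to 10.64 (median 8.40) in young adults. The newborn value of 12.22 came from replicate 29, and the next newborn was at 9.34. At 28 dpn 2 animals lay above the highest newborn and 7 above the highest young adult. Without replicate 29, chosen after its values were seen, 46 genes were transient and 20 had cancelled, 7 of them on the interferon list. ISG15 and RSAD2 no longer counted as cancelled, with nets of 0.63 and 0.80, while IRF7, MX1, USP18, IFIT3 and IFIT2 did. In that setting 5 members of the list rose and 5 fell in the net comparison. The health of single animals was not recorded in the labels.

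The remaining cancelled peaks were not on the interferon list. For CASP1 and LOC733579 the highest newborn was again replicate 29, at 9.98 and 11.92, and a link to the interferon response was not tested. CASP1, the inflammasome protease, ranged from 6.87 to 9.98 (median 8.86) in newborns, from 9.79 to 11.72 (median 10.63) at 28 dpn and from 8.14 to 9.26 (median 8.53) in young adults. It rose by 1.98 (SE 0.20) and fell by 2.14 (SE 0.20), with a net of -0.16 (-0.56 to 0.24), and 14 of the 15 animals at 28 dpn lay above every other animal of the other stages. CYP2C91, a P450 gene, had medians of 6.88, 8.51 and 6.47, with steps of 1.57 and -1.84. The remaining peaks were ALOX5AP of leukotriene synthesis (steps 1.40 and -1.32), LOC733579 (1.31 and -1.48), the organic cation carrier SLC22A3, the growth factor midkine (MDK), the matrix protein THBS3, the ammonia channel RHBG, EML2 and ARHGAP30. The 2 troughs were ARG2, the mitochondrial arginase, with medians of 10.87, 9.22 and 11.00 and steps of -1.27 and 1.60, and the transcription factor KLF4, with medians of 6.86, 5.63 and 6.75 and steps of -1.43 and 1.14. Only CASP1, MX1, CYP2C91, LOC733579 and KLF4 were cancelled under the deposited scaling, quantile normalization and array medians subtracted alike. Of these, CYP2C91 and KLF4 were not cancelled with the array median as floor. KLF4 was not cancelled with a pseudocount of 16 or the filter at the 60th percentile either. Its mean was below the array median in newborns, at 28 dpn and in young adults.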

How the data were processed

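The deposited intensities are linear signals, 1 per probe-set and array, that the authors summarised from Affymetrix GeneChip Porcine Genome Arrays with GCOS 1.1.1 (per the labels) and scaled to a common mean (2% trimmed mean of 500.1 to 500.2 on every array). The aligner and genome build do not apply, and the GC-RMA values the study worked with were not used here. Of 24123 probe-sets, 124 controls were left out, 10069 carried 1 gene symbol in the platform annotation, 198 several and 13732 none, and only the first kind was named. Values were taken to log2 without a pseudocount. Stages were taken from the sample titles.

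Probe-sets whose signal exceeded the median of the array in 50% or more of a stage's animals, with an SD above 0.25 over the arrays compared, were tested with limma 3.58.1 (lmFit and eBayes) in R 4.3.3, with 1 and 188 dpn in the net comparison and 1, 28 and 188 dpn in the fit for transient genes. A q value after Storey and Tibshirani was estimated over all probe-sets tested, and a probe-set was called where P and q were at or below 0.05. The q can lie below P where most probe-sets differ, so that P then decides. Among the probe-sets of a gene, the brightest on average over all 61 arrays gave its result. Of 1307 genes with several tested probe-sets, 189 had probe-sets called in both directions. Named genes were the 12 largest rises and falls among called genes without overlap, up to 4 called members in each direction of a described list, the 8 largest cancelled peaks and troughs and defining members that did not pass. A few more were named beside them after their values were seen. The comparison, the 37 gene lists and the rules were chosen with earlier results of these data known. No pair of arrays was a duplicate (highest correlation 0.916). The fits were tested on simulated data. The number of arrays limits the precision. Fold changes are on the log2 scale of signals, with no detection call, so the array median served as a floor for weak signals in an alternative.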

Additional observations from a re-analysis of the deposited data

How the results depend on the processing

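The net comparison and the transient genes were recomputed under 17 alternatives and without newborn replicate 29, the last chosen after seeing the data. Requiring a Benjamini-Hochberg p at or below 0.05 and a change of at least 1 lowered the probe-sets called from 3705 higher and 6037 lower to 1283 and 2884, and the genes from 1688 and 2288 to 566 and 949, as its construction demands. Subtracting array medians gave 6514 and 3438 probe-sets and 2912 and 1206 genes. Without an intensity filter 9299 probe-sets were lower, since more were tested. Cancelled peaks stayed between 14 and 23 under every alternative. Cancelled troughs, 2 as reported, numbered 12 with the filter at the 25th percentile and 16 without it, where dim genes enter, 4 when all probe-sets of a gene were averaged, and 1 with the filter at the 60th percentile, with array weights, with a pseudocount of 16 and with the array median as floor, for which the cause was not tested. Without newborn replicate 29 the counts were 3673 and 5962 probe-sets, 1678 and 2251 genes, 18 peaks and 2 troughs.

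Of 215 genes named, 146 kept their call under every alternative that tested them and 45 lost it under at least 1. A reversal of sign was counted for 15. Genes that were not called could take both signs without being counted. Among them were CASP1 (-0.19 to 0.35), MX1 (-0.52 to 0.14) and CD74 (-0.29 to 0.24). With array medians subtracted the net change of ATP8B1 was 0.0076, of C3 0.32, of C9 0.21, of CD46 0.10, of CD8B 0.13, of HBB 0.10, of POR 0.48, of PSME2 0.25 and of UROD 0.25. With quantile normalization CD8B was at 0.12, HBB at 0.0635 and SPCS1 at -0.0009. With the array median as floor FABP4 was at -0.17, SLC22A3 at -0.39 and THBS3 at -0.42. When all probe-sets of a gene were averaged, MTHFD1 was at -1.86, PPOX at -0.27 and SPCS1 at -0.54. The cause of these turns was not tested. HMMR was not tested when arrays with an outlying 3′ minus 5′ control difference were left out, because too few values passed the filter. No paired analysis was possible because the replicate numbers in the labels are not shared between stages. Signal over background limits genes under the array median, for which differences are uncertain in size.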
